A study of Mus musculus with 156 samples.

Results

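A pair of Firre knockout (KO) mouse embryonic stem cell lines was compared by RNA-seq before any doxycycline had been added: a line that is KO for Firre and carries a doxycycline-inducible Firre transgene (the KO transgene line), and a line that is KO for Firre and carries no transgene (the KO control). The members were the 6 libraries of these lines at 0 min of the long time course, 3 of the KO transgene line and 3 of the KO control, chosen from 156 libraries by their genotype, time and course labels. The comparison asks how far the lines already differed before induction, and whether the transgene was transcribed without the drug. The series also holds a WT transgene line and a WT control, sampled in the same long course (60 libraries, 3 per group) and in a short course (96 libraries, 2 per group).

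Per the labels' protocols, all lines grew on gelatin, and their medium held serum and LIF with inhibitors of MEK (PD0325901) and of GSK3 (CHIR99021). The 6 libraries had received no doxycycline, although GEO's treatment label names the drug for every library. Each genotype is represented by 1 line, and the transgene's promoter, its place of insertion and how the lines were derived are not given in the sources used here. Whether replicates came from separate cultures is not given either, so the spread that p-values measure may be technical. The main fit estimated it between libraries of the same line and time, over all 60 libraries of the long course.

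Firre is an X-linked gene whose long noncoding RNA stays in the nucleus, binds the nuclear matrix protein Hnrnpu through repeated sequence elements, and escapes X inactivation. Doxycycline-controlled promoters bind a drug-dependent activator, and such promoters are known for low transcription without the drug, often called leak. Cultured embryonic stem cell lines also drift apart as they are cloned and passaged: gain or loss of whole chromosomes, loss of the Y and altered imprinting are well known in them.

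The KO transgene libraries had 31230492 to 36271467 counts in all and the KO control libraries 30128129 to 42651558. Both lines had the profile of embryonic stem cells. Of the 12 measured genes of general pluripotency, 0 rose and 0 fell, with Pou5f1 at a mean of 907.6 TPM (transcript abundance scaled to library total) in the KO transgene line, against 917.7 TPM in the KO control. The list of 10 fibroblast or feeder genes was low in both lines. It summed to 7.05 to 8.56 TPM in the KO transgene line, against 6.13 to 6.65 TPM in the KO control, so the KO transgene line was the higher without overlap. The 5 members that could be tested had log2 fold changes of -0.23 (Acta2) to 0.30 (Tagln), and 0 rose and 0 fell past the test. Postn and Lum, which were not tested, were at 0 TPM in all 3 KO transgene libraries and averaged 0.0157 and 0.00569 TPM in the KO control. In such bulk libraries, a change in the number of cells of a type and a change in RNA per cell cannot be told apart.

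Firre RNA was low in both lines and higher in the KO transgene line. The gene (chromosome X, 50555744 to 50635321, minus strand, mm10) had 26, 28 and 26 counts in the KO transgene libraries, against 12, 11 and 11 counts in the KO control libraries. The groups did not overlap in counts, although the library with the fewest counts in all was a KO control one. In TPM, Firre was at 0.588, 1.03 and 1.07 in the KO transgene line, against 0.515, 0.235 and 0.420 in the KO control. These did not overlap either, but the lowest KO transgene library and the highest KO control library lay close together. The log2 fold change of the KO transgene line over the KO control was 1.35 ± 0.28 (SE, n = 3 and 3), with an adjusted p of 6.81e-04 by edgeR's quasi-likelihood test with Benjamini-Hochberg adjustment over 17565 genes. It passed the threshold of 0.05 in each fit that left out 1 of the 6 libraries, with log2 fold changes of 1.22 to 1.47 and adjusted p of 0.0015 to 0.0137.

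The level before doxycycline was far below that of lines with an intact locus. The WT transgene line averaged 46.1 ± 0.546 TPM of Firre at 0 min and the WT control 24.2 ± 0.582 TPM (SD, n = 3 each), against 0.895 ± 0.267 TPM in the KO transgene line and 0.390 ± 0.142 TPM in the KO control. After 720 min of doxycycline the log2 fold change between the KO lines was 5.46 ± 0.09, which gives the scale of the uninduced difference. In the WT pair, Firre had 2083, 2743 and 2782 counts in the WT transgene line, against 1806, 2102 and 2229 counts in the WT control, and edgeR gave a log2 fold change of 0.31 ± 0.04 (adjusted p = 6.68e-08).

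Counts and TPM did not give the same picture of the pairs. In TPM, which the authors' tool scales by transcript length, the WT pair was at 45.8, 45.8 and 46.8 against 24.7, 24.3 and 23.6. A limma fit on log2(TPM + 0.1) over the same genes, chosen after seeing the data, gave log2 fold changes of 1.03 ± 0.17 in the KO pair (adjusted p = 1.01e-04) and 0.93 ± 0.17 in the WT pair (adjusted p = 2.16e-04). The difference between the pairs passed on counts, at 1.04 ± 0.28 on the log2 scale (adjusted p = 0.0122), but not on TPM, at 0.10 ± 0.24 (adjusted p = 0.954). Firre was thus higher in the transgene line of both backgrounds on either measure, while a larger fold change in the KO pair rested on counts alone.

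In the short course the difference did not pass. Its KO transgene libraries had 45 and 46 Firre counts at 0 min, or 1.38 and 1.94 TPM, and its KO control libraries 36 and 49 counts, or 1.09 and 1.62 TPM. These groups overlapped, with a log2 fold change of 0.24 ± 0.31 (adjusted p = 0.817, n = 2 and 2). The gap between the courses, 1.11 ± 0.36 on the log2 scale, did not pass (adjusted p = 0.47), which does not show that the courses were alike. Which Firre transcript or part of it these few counts came from cannot be read from sums per gene.

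**Figure D1:**
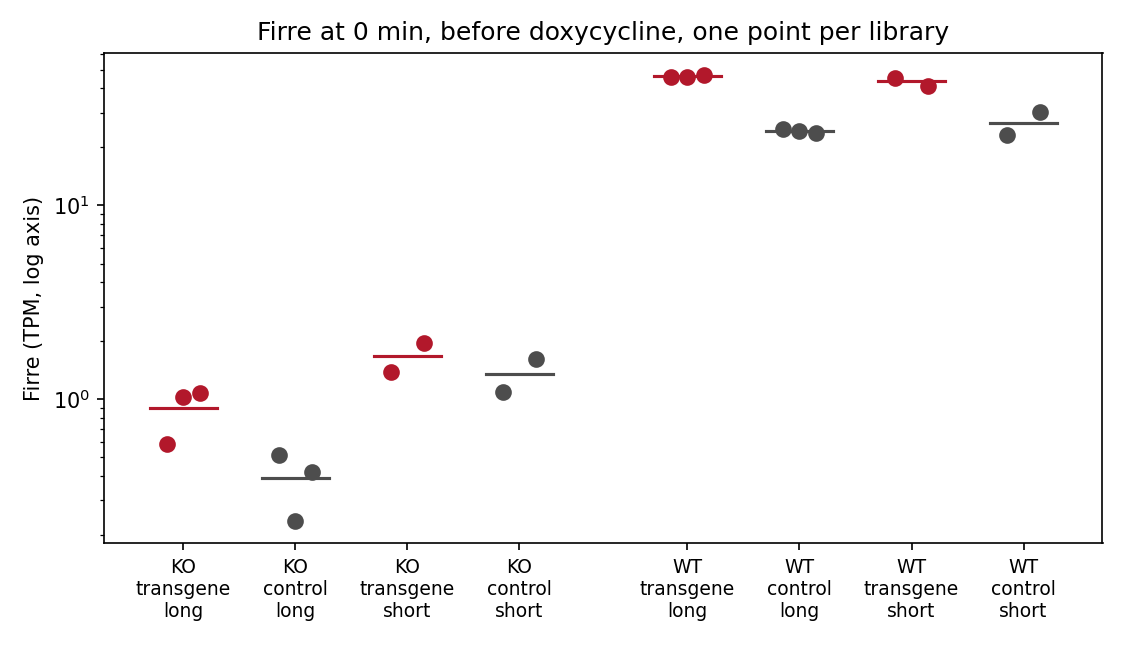
Firre in TPM (log axis) in each library at 0 min, with bars at the group means, for the transgene line and the control of the KO and the WT background in the long and the short course. The KO libraries lie between 0.235 and 1.94 TPM and the WT libraries above 20 TPM, and within the long course every KO transgene library lies above every KO control library.

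Over all genes tested, 622 differed between the uninduced lines at an adjusted p under 0.05 (3.54%) by edgeR, 322 of them (1.83%) higher and 300 (1.71%) lower in the KO transgene line. Most differences were small: 78 of the 622 were at least 0.58 on the log2 scale, 0.444% of those tested, 64 higher and 14 lower. Without regard to the test, the CPM (edgeR's depth-scaled counts) of all 3 KO transgene libraries lay above all 3 KO control libraries for 9.09% of genes, and below them for 9.13%. On log2(TPM + 0.1), limma called 185 genes, 127 higher and 58 lower, among them 177 of the 622. The edgeR count fell to 396 without KO control replicate 1 and to 390 without KO transgene replicate 2, and 221 of the 622 genes kept their call and direction in all 6 fits that left out 1 library. For every gene with a value here, the fold change is log2, the KO transgene line over the KO control, and "called" means past the adjusted p of 0.05. The median over all genes tested was 0.0015.

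Genes of the Y chromosome formed 1 group that was higher in the KO transgene line. Of the 11 Y-linked genes tested, 6 rose and 0 fell in the KO transgene line, or 54.55% called against 3.54% of all genes tested. Summed over the chromosome, Y-linked genes took 113.4, 120.9 and 120.4 CPM in the KO transgene libraries, against 61.6, 61.0 and 62.8 in the KO control libraries. The groups were far apart, at 1.91 times the KO control level, and an exact two-sided permutation test gave p = 0.1, the smallest that 3 against 3 libraries allow.

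The 6 genes lie together near 1 end of the Y, from 725128 (start of Zfy1) to 1459782 (end of Usp9y, mm10). Ddx3y, which encodes an RNA helicase, had 22.9, 23.3 and 21.6 TPM in the KO transgene line, against 10.4, 10.1 and 10.2 TPM in the KO control, with a fold change of 1.11 ± 0.05 (adjusted p = 6.74e-29). Uty, which encodes a JmjC-domain protein of the histone H3 K27 demethylase family, had 9.18, 9.47 and 9.71 TPM against 4.41, 4.41 and 4.51 TPM, a fold change of 1.04 ± 0.07 (adjusted p = 6.41e-19). Neither gene's groups came near each other. Eif2s3y, which encodes a subunit of the translation initiation factor eIF2, had 38.3, 41.3 and 39.6 TPM against 20.1, 19.6 and 17.9 TPM, and rose by 1.02 ± 0.06 (adjusted p = 3.09e-25). Uba1y, a gene for a ubiquitin-activating enzyme, rose by 0.85 ± 0.09 and the zinc finger gene Zfy1 by 0.95 ± 0.16. Usp9y, a gene for a deubiquitinating enzyme, was near the limit of detection, with 5, 18 and 8 counts in the KO transgene line, against 2, 3 and 3 counts in the KO control. Its call (2.01 ± 0.58, adjusted p = 0.033) was lost without KO control replicate 1, 2 or 3 or KO transgene replicate 2 or 3, at adjusted p of up to 0.424. The demethylase gene Kdm5d, at 0.47 ± 0.17, did not pass (adjusted p = 0.139).

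The X-linked counterparts of these genes gave no calls. None of Ddx3x, Kdm6a, Eif2s3x, Uba1, Kdm5c, Zfx, Usp9x, Rbmx and Sox3 was called, with fold changes of -0.08 (Uba1) to 0.07 (Rbmx). Eif2s3x had 236.2, 239.1 and 242.6 TPM in the KO transgene line, against 238.0, 238.5 and 238.6 TPM in the KO control, so its groups overlapped. The X chromosome as a whole took 2.45% of counts in both lines, and mitochondrially encoded genes took 3.83% in the KO transgene line, against 3.84% in the KO control (exact permutation p = 1 for each).

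Reads of a Y gene and its X counterpart could be confused only where their transcripts are the same. The first 60 coding bases of 2 pairs, from the GENCODE M21 transcripts (GRCm38), are shown because such differing bases decide to which copy a read is assigned. Capitals mark the bases that differ between the members of a pair, at 11 of 60 positions for Ddx3y and Ddx3x and at 13 of 60 for Eif2s3y and Eif2s3x.
Ddx3y: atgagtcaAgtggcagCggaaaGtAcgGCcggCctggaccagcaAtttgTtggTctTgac
Ddx3x: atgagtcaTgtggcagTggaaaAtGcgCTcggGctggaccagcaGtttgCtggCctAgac
Eif2s3y: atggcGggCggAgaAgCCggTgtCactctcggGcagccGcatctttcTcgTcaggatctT
Eif2s3x: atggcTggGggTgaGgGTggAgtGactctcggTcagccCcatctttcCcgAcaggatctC
Over whole transcripts, 0.73% of the 31-base words of Ddx3y occurred in Ddx3x and 0.0944% of those of Eif2s3y in Eif2s3x. The largest share among the other 5 pairs was 0.699%, for Uty and Kdm6a.

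**Figure D2:**
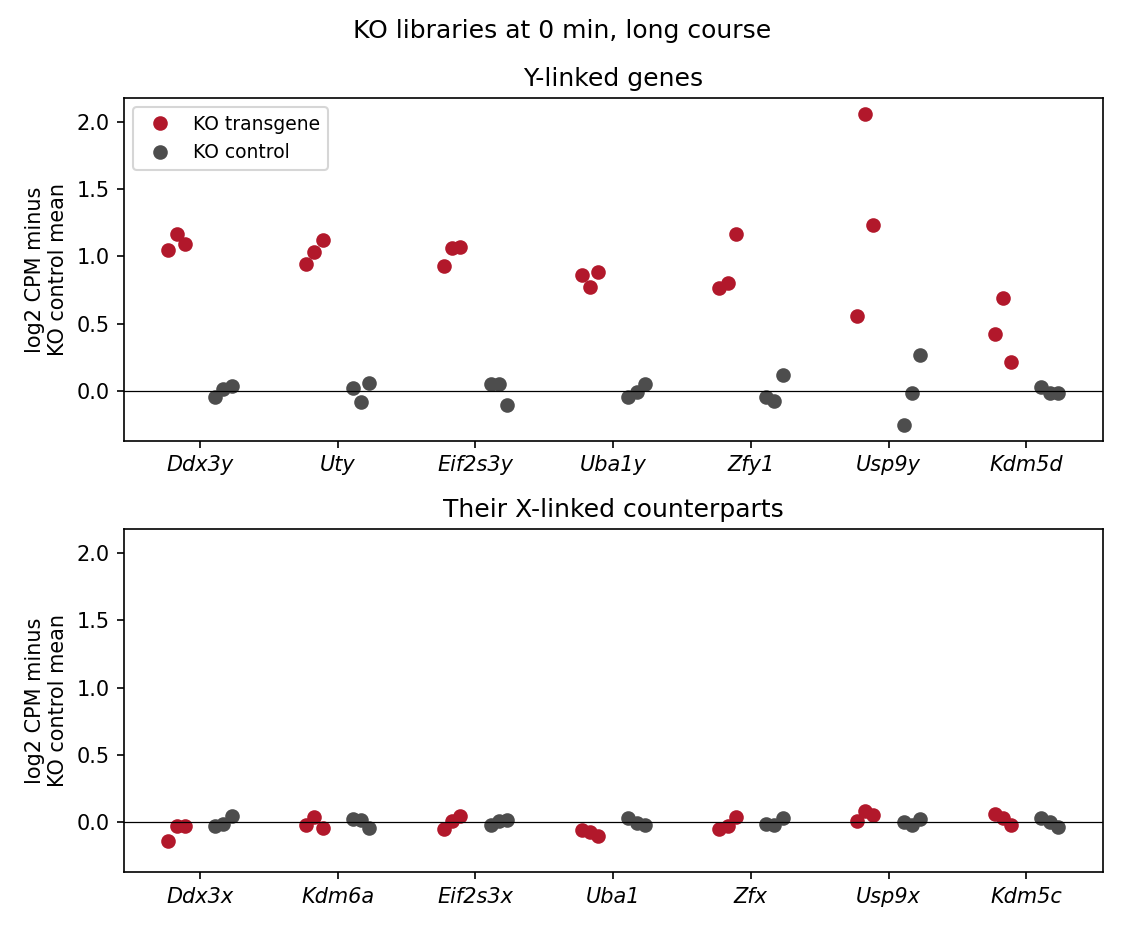
Log2 CPM in each KO library at 0 min of the long course, minus the mean of the KO control libraries, for 7 Y-linked genes and their 7 X-linked counterparts. The KO transgene libraries lie about 1 log2 unit above the KO control for Ddx3y, Uty and Eif2s3y, and around 0 for Ddx3x, Kdm6a and Eif2s3x.

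The Y difference depended on the set of libraries. At 0 min of the short course, Y-linked genes took 194.2 ± 14.8 CPM in the KO transgene line, against 188.4 ± 8.24 CPM in the KO control (SD, n = 2 each). Of the 16 genes of the X-Y list, 0 were called in that course, where 0.161% of all genes tested were. Ddx3y had a fold change of 0.07 there, and the difference between the courses passed for Ddx3y, Uty, Eif2s3y and Uba1y (1.05, 0.98, 1.16 and 0.74 on the log2 scale, adjusted p of 5.62e-07 to 0.004). In the WT pair of the long course, Y-linked genes took 146.5 ± 0.933 CPM in the WT transgene line and 146.3 ± 3.74 in the WT control. The long-course KO lines were thus the 2 lowest of the 4 lines at 0 min. At 720 min of doxycycline the KO transgene line had 126.7 and the KO control 66.0 CPM, and at 1440 min they had 182.6 and 126.9, with the KO transgene line above at 2880 and 5760 min as well. Copies of the Y per cell were not measured here, and their part in these levels was not tested.

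Chromosome 11 was lower along its whole length in the KO transgene line. Of its 1286 genes tested, 100 fell and 6 rose, or 8.24% called, while the other autosomes had 180 lower and 289 higher among 15176 genes. The fall was small and wide: the median over chromosome 11 was -0.061, against -0.0026 to 0.015 for the other autosomes, and 74.7% of its genes were below zero, against 47.2% elsewhere on the autosomes. The median was below zero in all 13 steps of 10 Mb along the chromosome. Thus 33.3% of all genes that fell lay on a chromosome with 7.32% of the genes tested. The 100 genes had fold changes of -0.86 to -0.09, with a median of -0.15. Their number dropped to 57 without KO control replicate 1, to 58 without KO control replicate 3, to 48 in a fit on the 6 libraries alone, and to 12 on TPM with limma.

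The WT transgene line was lower on chromosome 11 too. In the WT pair of the long course the median over the chromosome was -0.058, against -0.012 to 0.027 for the other autosomes. Of its genes, 69.1% were below zero, and 165 were lower and 33 higher. That is 15.4% called, against 13.2% of all genes tested in that pair, of which 5.94% were lower and 7.22% higher. In the short course the KO pair had a median of -0.025 over chromosome 11, with 55% of its genes below zero. There 1 gene was lower and 0 higher, or 0.0776% called, against 0.161% of all genes tested.

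The share of autosomal counts on chromosome 11 separated all 6 libraries by line. It was 12.87, 12.84 and 12.88% in the KO transgene libraries, against 13.41, 13.40 and 13.42% in the KO control libraries (exact two-sided permutation p = 0.1, the smallest possible). Both KO lines lay above the WT lines of the same course, at 9.98 ± 0.0032% for the WT transgene line and 10.36 ± 0.018% for the WT control (SD, n = 3 each), whose libraries did not overlap either. A lower share in the transgene line was therefore not particular to the KO pair. In the short course the WT order was the other way round, at 10.09 to 10.12% for the WT transgene line against 9.85 to 9.96% for the WT control. The same lines in the short course had 10.11 ± 0.048% (KO transgene) and 10.44 ± 0.045% (KO control, SD, n = 2 each). The share was lower in both KO lines from 1440 min of the long course on: the KO transgene line had 12.78% at 720 min and 11.18% at 1440 min, and the KO control 13.36% and 11.55%. At each of the 5 times of the long course the KO transgene line was the lower. Copies of chromosome 11 per cell were not measured here, and their part in these levels was not tested.

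**Figure D3:**
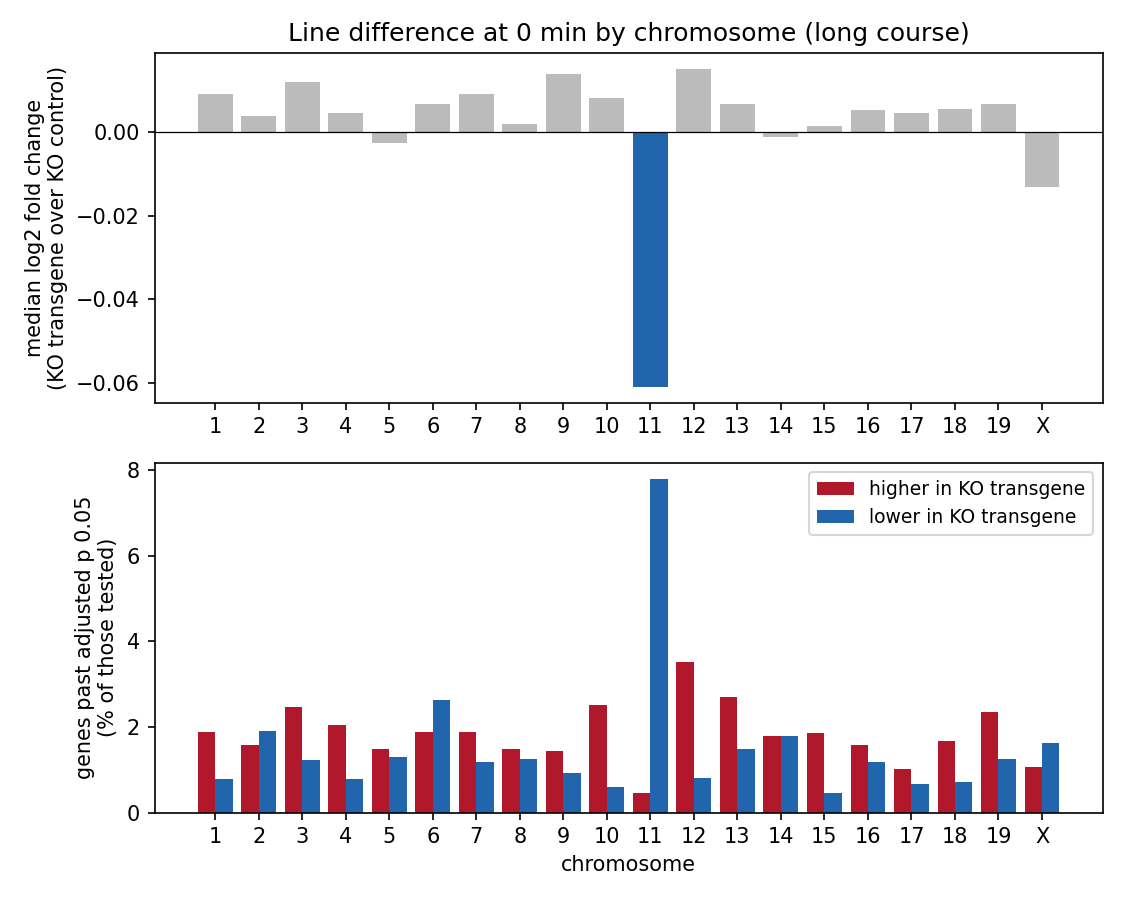
Top, median log2 fold change (KO transgene over KO control, 0 min, long course) of the genes tested on each autosome and the X. Bottom, percent of the genes tested on each chromosome that were higher or lower in the KO transgene line at an adjusted p under 0.05. Chromosome 11 stands apart with a median of -0.06 and 100 genes lower.

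**Figure D4:**
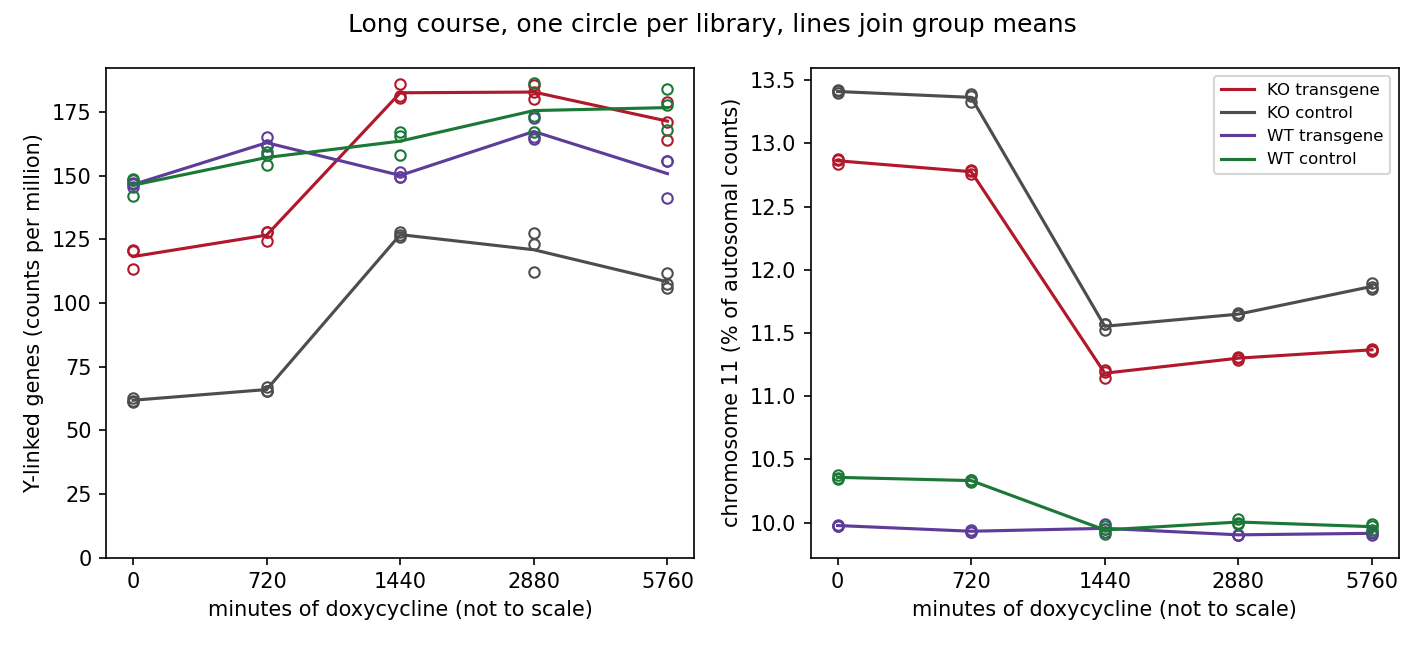
Summed CPM of Y-linked genes (left) and percent of autosomal counts on chromosome 11 (right, axis not from 0) in each library of the long course, with lines through the group means, for the KO and WT transgene lines and controls against minutes of doxycycline. The KO transgene line lies above the KO control for the Y and below it for chromosome 11 at all 5 times, and both KO lines shift between 720 and 1440 min.

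Leaving out chromosomes 11 and Y, 510 of the 622 called genes remained, 310 higher and 200 lower. A fit without those chromosomes called 484 genes, 280 higher and 204 lower, and kept 478 of the 622.

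At the far end of the X, genes at the boundary of the pseudoautosomal region rose. Mid1, which encodes a microtubule-associated ubiquitin ligase and spans that boundary in laboratory mice, had 13.6, 13.1 and 12.4 TPM in the KO transgene line, against 5.21, 5.89 and 5.65 TPM in the KO control. The groups did not overlap, and its fold change of 1.26 ± 0.06 (adjusted p = 1.82e-27) was among the largest of any named gene. Mid1 was also higher in the KO transgene line in the short course (0.59 ± 0.09, adjusted p = 3.29e-05), and in the WT transgene line over its control (2.46 ± 0.07, adjusted p = 2.9e-43). Both differences between these pairs passed, at 0.68 ± 0.10 for the long minus the short course and -1.20 ± 0.10 for the KO minus the WT pair. Erdr1, a pseudoautosomal gene, had 473.4, 447.6 and 429.0 TPM in the KO transgene line, against 316.6, 322.2 and 346.0 TPM in the KO control, and rose by 0.46 ± 0.07 (adjusted p = 3.26e-05). In the WT pair Erdr1 was lower in the transgene line (-0.56). A noncoding gene that lies inside Mid1 on the other strand, G530011O06Rik, had a fold change of 1.54 and was named after its value was seen. The library kit does not mark strand, so its reads cannot be told from those of Mid1.

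Genes of the 2-cell-like state, which embryonic stem cells in culture enter for short periods, rose together. Of 13 measured members of the list, 9 rose and 0 fell, or 69.2% called against 3.54% of all genes tested, with a median of 0.52. These were 5 copies of Zscan4, which encode zinc finger and SCAN domain proteins active at telomeres, the deubiquitinase-like genes Usp17lb and Usp17lc, Tcstv1 and Zfp352. Zscan4d had 14.8, 13.8 and 14.2 TPM in the KO transgene line, against 9.85, 10.2 and 10.3 TPM in the KO control (0.49 ± 0.06, adjusted p = 1.55e-08). Zscan4e had 17.1, 19.2 and 16.9 TPM against 11.7, 12.3 and 11.8 TPM (0.56 ± 0.08, adjusted p = 2.48e-06), so that neither gene's groups overlapped. The Zscan4 and Usp17l copies are nearly identical in sequence, and how the authors' tool split reads among them is not known, so they do not count as separate observations. Usp17lb lost its call without KO control replicate 1 or KO transgene replicate 1 (adjusted p = 0.0596 and 0.0755), and Zfp352 without KO control replicate 1 or KO transgene replicate 2 (adjusted p = 0.0713 and 0.154). Tcstv1, at adjusted p = 0.0461, kept its call only without KO transgene replicate 2.

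This group, too, differed between pairs and between courses. In the WT pair the same genes were lower in the transgene line, with Zscan4e at -0.66 and Zscan4f at -0.63 on the log2 scale. The difference between the KO and the WT pair passed for 11 of the 13 genes, against 6.52% of all genes tested. In the short course the median of the list was 0.00. The difference between the courses passed for 5 of the 13, against 0.219% of all genes tested. These were Zscan4c, Zscan4d, Zscan4e, Zscan4f and Usp17lc (0.66, 0.54, 0.71, 0.58 and 0.80). In the long course after doxycycline, Zscan4d differed between the KO lines by 0.34, 0.15, 0.46 and 0.63 at 720, 1440, 2880 and 5760 min, with the transgene induced.

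Imprinted genes, which are expressed from 1 parental allele, fell more often than they rose. Of 35 measured, 8 fell and 2 rose, or 28.6% called against 3.54% of all genes tested, with a median of -0.07. The paternally expressed genes Peg3 and Mest, which encode a zinc finger protein and a hydrolase-like protein, were among the best measured. Peg3 had 27.4, 27.2 and 26.3 TPM in the KO transgene line, against 35.4, 34.5 and 32.8 TPM in the KO control (-0.34 ± 0.03, adjusted p = 6.07e-14). Mest had 48.6, 48.3 and 48.0 TPM against 64.5, 62.8 and 55.8 TPM (-0.35 ± 0.04, adjusted p = 1.68e-10). Both genes were lower in every KO transgene library than in any KO control library. Ndn, a gene of the Prader-Willi region, had 2.59, 2.52 and 2.63 TPM against 4.02, 3.45 and 3.96 TPM (-0.57 ± 0.09, adjusted p = 1.41e-05). Impact fell by 0.28, Nnat by 0.52, Grb10 by 0.24, Zrsr1 by 0.21 and Rian by 0.11 on the log2 scale.

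Grb10 and Zrsr1 lie on chromosome 11. Rian lost its call without KO control replicate 2 or 3 or KO transgene replicate 1 or 3 (adjusted p up to 0.302). The 2 that rose, Gnas (0.13) and Cd81 (0.12), were weaker: Gnas lost its call without KO control replicate 3 or KO transgene replicate 2 (adjusted p up to 0.146), and Cd81 without KO control replicate 3 or KO transgene replicate 1 (adjusted p up to 0.0699). H19, Igf2, Igf2r, Snrpn and Peg10 were not called. In the short course 0 of the 35 genes was called, where 0.161% of all genes tested were. Ndn was at -0.50 ± 0.13 and Impact at -0.26 there (adjusted p = 0.064 and 0.0572). The difference between the courses was called for 0 of the 35, so the courses were not shown to differ in these genes. In the WT pair Ndn was higher in the transgene line, at 0.69, and the KO and WT differences for Ndn, Peg3, Mest, Impact and Grb10 differed from each other. At 5760 min, with doxycycline, Peg3 was higher in the KO transgene line (0.46 ± 0.03, adjusted p = 7.29e-21).

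Of 17 genes of the naive pluripotency list, 2 rose and 1 fell, or 17.6% called against 3.54% of all genes tested, with a median of -0.01. Nanog, Esrrb, Tfcp2l1, Klf2 and Zfp42 were not called, with fold changes of -0.05 to 0.05. The transcription factor gene Tbx3 had 48.2, 47.5 and 44.3 TPM in the KO transgene line, against 39.1, 39.8 and 39.3 TPM in the KO control (0.28 ± 0.04, adjusted p = 3.02e-08), and Klf4 rose by 0.19 ± 0.04. Dppa3, which encodes a protein that protects DNA methylation in the early embryo, had 38.5, 42.2 and 41.4 TPM against 55.8, 59.2 and 57.7 TPM, and fell by 0.51 ± 0.07 on the log2 scale (adjusted p = 1.21e-07). All 3 KO transgene libraries lay below all KO control ones. Dppa3 was also lower in the WT transgene line (-0.81), and was -0.47 ± 0.18 in the short course, where it did not pass (adjusted p = 0.232).

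Lineage lists had at most 3 calls each. Those with a call had 6.67% (germline) to 60% (neuroectoderm) called, against 3.54% of all genes tested. Among 11 genes of the formative and primed epiblast, Lef1 and Dnmt3a fell and 0 rose, with a median of -0.08. Of 13 trophoblast genes Krt8 alone rose (0.33), and of 15 germline genes Tex19.1, on chromosome 11, alone fell (-0.17). Of 5 neuroectoderm genes 3 were called, a larger share than over all genes: Sox1 rose (0.53), and Tubb3 (-0.24) and Map2 (-0.37) fell. Each of these 3 neuroectoderm calls, like those of Krt8 and Dnmt3a, was lost without at least 1 of the libraries, as given further on. The calls of Lef1 and Tex19.1 were kept in every such fit. The lists of primitive endoderm (8 measured genes) and mesendoderm (7) had 0 calls each way, and their genes summed to 3.42 to 4.71 and 8.21 to 8.89 TPM in the KO transgene line, against 3.47 to 4.74 and 7.44 to 8.89 TPM in the KO control.

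The Wnt targets Lef1, Notum and Ccnd1 fell and Cdx1 rose, out of 12 measured (median -0.10). That is 33.3% called, against 3.54% of all genes tested. Of the 12, 4 lie on chromosome 11, whose genes had a median of -0.061. Lef1 is also in the epiblast list and Ccnd1 in the FGF/ERK list. Lef1, a transcription factor of the Wnt pathway, had 5.68, 6.21 and 6.15 TPM in the KO transgene line, against 8.11, 8.02 and 8.99 TPM in the KO control (-0.49 ± 0.09, adjusted p = 2.64e-04). Notum, a secreted Wnt inhibitor on chromosome 11, had 59.3, 56.2 and 56.9 TPM against 75.3, 69.4 and 66.4 TPM (-0.26 ± 0.04, adjusted p = 9.58e-06). In neither gene did the groups overlap. Of 13 FGF/ERK targets Etv5 (-0.13) and Ccnd1 (-0.14) fell and 0 rose, under medium in which MEK was inhibited in both lines. Of 14 genes of cholesterol synthesis Hmgcs1 (-0.12), Insig1 (-0.15) and Fdps (-0.15) fell and 0 rose. Called were thus 15.4% of these FGF/ERK targets and 21.4% of these cholesterol genes.

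The lists of p53 targets, stress responses, glycolysis and the cell cycle had at most 2 calls each. Those with a call had 5.26% (integrated stress response) to 12.5% (p53 targets) called, against 3.54% of all genes tested. The p53 targets Plk2 and Btg2 rose by 0.18 each, with 0 of the 16 lower, and Asns rose by 0.10 among 19 genes of the integrated stress response. The heat shock gene Hsph1 fell by 0.14 (1 of 10), the glycolytic gene Pfkp by 0.13 (1 of 14) and the replication licensing gene Cdc6, on chromosome 11, by 0.12 (1 of 10 G1/S genes). The lists of G2/M genes (10 measured), immediate early genes (11), interferon response (6) and X inactivation centre (6) had 0 calls each way. Xist averaged 0.0953 TPM in the KO transgene line, against 0.0861 TPM in the KO control.

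Calls of small differences in these lists were often lost when 1 library was left out, for many genes whichever of several libraries it was. Of 55 called members over all lists, 33 kept their call in every fit that left out 1 library, and 22 lost it in at least 1. Krt8 lost it without KO control replicate 1 or 3 or KO transgene replicate 1, Sox1 without KO control replicate 3 or KO transgene replicate 2, and Tubb3 without KO control replicate 1 or KO transgene replicate 2 or 3, at adjusted p of up to 0.137, 0.113 and 0.0623. Map2 and Asns lost it without KO control replicate 1 or 2 or KO transgene replicate 3, Map2 also without KO transgene replicate 1 and Asns also without KO transgene replicate 2 (adjusted p up to 0.237 and 0.13). Dnmt3a kept its call only without KO transgene replicate 1, and Cdx1 only without KO control replicate 1 (adjusted p up to 0.173 and 0.327). Plk2 lost it without KO control replicate 2 or 3 or KO transgene replicate 1 or 2, and Btg2 and Fdps without KO control replicate 1 or 3 or KO transgene replicate 2 or 3 (adjusted p up to 0.174, 0.162 and 0.173). Hmgcs1 lost it without KO control replicate 3 or KO transgene replicate 1, Ccnd1 without KO control replicate 1 or KO transgene replicate 3, and Pfkp without KO control replicate 3 (adjusted p up to 0.124, 0.134 and 0.131). On TPM with limma, 30 of 59 called named genes kept their call. Among the 29 that lost it were those just given, together with Klf4, Notum, Etv5, Suz12, Tex19.1, Cdc6, Shf, Zfp280c, Slc4a10, Nlrp4c and Nxf3, each with the same sign as on counts.

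Among the named genes outside the lists and off the X and Y, the largest rises were in Dcc, Meis2 and Chit1. Dcc, the netrin receptor gene, was low, at 0.174, 0.248 and 0.199 TPM in the KO transgene line, against 0.0728, 0.116 and 0.119 TPM in the KO control (1.01 ± 0.21, adjusted p = 0.00104). Chit1, a chitinase gene, had 5.63, 5.80 and 4.85 TPM against 3.28, 2.94 and 2.68 TPM (0.86 ± 0.10, adjusted p = 2.82e-10). Meis2, a homeobox gene, had 0.805, 1.07 and 0.768 TPM against 0.635, 0.296 and 0.554 TPM (0.91 ± 0.19, adjusted p = 0.00118), and lost its call without KO control replicate 2 (adjusted p = 0.055). All 3 genes had every KO transgene library above every KO control library, as 9.09% of all genes tested did in CPM. They were chosen by the size of their rise in these same libraries.

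Genes outside the lists that fell were of low or moderate level. Slc4a10, a bicarbonate transporter gene, had 1.08, 0.479 and 0.567 TPM in the KO transgene line, against 1.03, 1.92 and 1.20 TPM in the KO control. Its groups overlapped in TPM though not in CPM, with a fold change of -0.89 ± 0.19 (adjusted p = 0.00152). Slfn3, on chromosome 11, fell by 0.76, Nlrp4c, of the NLRP family, by 0.70, and Nxf3, an X-linked gene of the RNA export factor family, by 0.63 on the log2 scale. Pramel7, a gene active in the inner cell mass and in naive stem cells, had 5.30, 4.36 and 5.40 TPM against 8.69, 9.26 and 9.12 TPM (-0.74 ± 0.11, adjusted p = 5.52e-07). Aass, Cnga4 and Serpinf1 also fell (-0.68, -0.64 and -0.54), each with a call that was lost in several fits that left out 1 library. Aass lost it without KO control replicate 1 or 2 or KO transgene replicate 1 or 3, and Cnga4 without KO control replicate 1 or 2 or KO transgene replicate 1 or 2. Serpinf1 kept its call only without KO transgene replicate 2, with adjusted p of up to 0.252 in the other such fits.

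Near the Firre locus, the genes that could be tested were few. Within 2 Mb of Firre, 33 genes were listed and 12 could be tested. Of these 12, 1 rose and 2 fell, or 25% called against 3.54% of all genes tested, with a median of -0.01. The glypican gene Gpc4 had 31.2, 31.7 and 31.1 TPM in the KO transgene line, against 26.3, 25.4 and 26.4 TPM in the KO control (0.27 ± 0.04, adjusted p = 8.18e-06). The deubiquitinase gene Usp26 had 12.5, 14.1 and 12.8 TPM against 17.6, 17.5 and 16.9 TPM (-0.41 ± 0.06, adjusted p = 2.07e-06). In both, the groups were apart. Zfp280c, a zinc finger gene, fell by 0.24 and lost its call without KO transgene replicate 1 (adjusted p = 0.188).

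Genes tied to Firre by function or by its induction were looked at as well. Among 12 chromatin and nuclear matrix partners, which include Hnrnpu, Ctcf and cohesin subunits, Suz12, a Polycomb subunit gene on chromosome 11, fell by 0.15 and 0 rose. That is 8.33% called, against 3.54% of all genes tested. Hnrnpu had a mean of 576.3 TPM in the KO transgene line, against 573.6 TPM in the KO control. The response to induction in the WT background, which shares no library with the KO pair, gave 61 genes that rose by at least 1 on the log2 scale at some time of the long course. Of these 1, Gm5891, was higher in the uninduced KO transgene line and 2, among them Shf, were lower, with a median of 0.03. Over all genes tested, 1.83% were higher and 1.71% lower. Of the 61, 32 had the same sign as in that response, while 50.55% of all genes were above zero. Of 31 genes that fell on induction in the WT background, 2, Nrp2 and Trpm1, were higher and 1, Pramel7, was lower, with a median of 0.05. Of the 31, 15 had the same sign as in that response. With so few calls, neither set can be told apart from all genes tested. Of 9 genes named as rising on induction in an earlier analysis of these data, 0 were higher before induction and Shf was lower (-0.34), a call lost without KO control replicate 1 (adjusted p = 0.051). This 1 call is 11.1% of the 9 genes.

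The same lines at 0 min of the short course tell which differences were shared by another set of libraries. With 2 libraries per line, 29 of 18009 genes were called there (0.161%), 12 higher and 17 lower. Of these 29, 13 were also called in the long course, which is 44.8% of the short-course calls and 2.09% of the long-course ones, and all 13 had the same direction. Mid1, Sipa1l2 and Gm47283 were higher in both. Those lower in both included Usp26, Nxf3, Dpp4, Mep1b, Cyb5b, Tmeff1, Myef2, Nup88 and Gm44070. Sipa1l2, which encodes a GTPase-activating protein, had 5.26, 4.81 and 4.61 TPM in the KO transgene line, against 3.71, 3.68 and 3.75 TPM in the KO control of the long course. Its fold change was 0.40 ± 0.05 there and 0.45 ± 0.08 at 0 min of the short course. Of the called genes of the long course, 488 of 621 (78.6%) had the same sign in the short course, against 56.2% of all genes.

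The size of the difference was tested between the courses as well. It differed for 37 of 16904 genes (0.219%), 34 of them with a higher value in the long course, and 34 of the 37 were also called in the long course. They included 4 Y-linked genes and several Zscan4 copies. The short-course calls hung on single libraries: 6 genes without KO control replicate 1, 67 without KO control replicate 2, 4 without KO transgene replicate 1 and 16 without KO transgene replicate 2. The difference between the courses was called for 161 genes without KO control replicate 2 of the short course and for 18 without KO transgene replicate 1 of it, and for 23 without KO control replicate 1 and 19 without KO transgene replicate 2 of the long course.

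The WT pair, which shares no library with the KO pair, differed more. Between the WT transgene line and the WT control at 0 min, 2312 genes were called (13.2%), 1269 higher and 1043 lower. Of the 622 genes of the KO pair, 278 were called there too, which is 44.7% of the KO and 12.0% of the WT calls. Of these, 174 had the same direction, 78 higher and 96 lower in both, and 104 the opposite one. Mid1, Zfy1 and Meis2 were higher in both transgene lines, and Usp26 was lower in both. Ddx3y was higher in both, while Eif2s3y was higher in the KO transgene line and lower in the WT transgene line (-0.65 ± 0.05). The difference between the 2 pairs itself was called for 1146 genes (6.52%), 595 with a higher value in the KO pair.

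**Figure D5:**
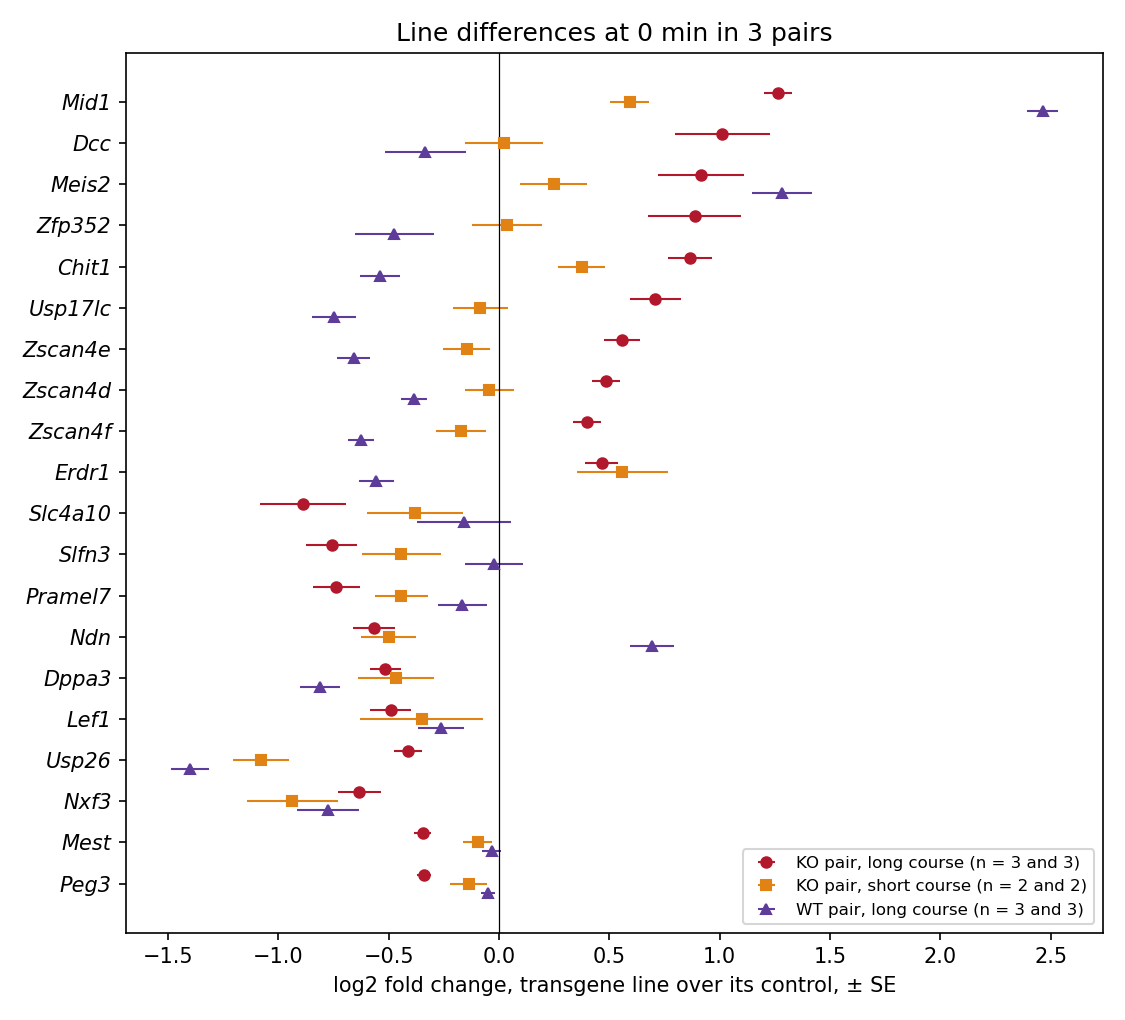
Log2 fold change of the transgene line over its control at 0 min, with SE, for genes named in the text, in the KO pair of the long course, the KO pair of the short course and the WT pair of the long course. Mid1, Usp26 and Nxf3 lie on the same side in all 3 pairs, while Zscan4d, Zscan4e and Zscan4f lie above 0 in the KO pair of the long course and below 0 in the WT pair.

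Fold changes between the KO lines at later times, measured in other libraries of the same course but with the transgene induced, stayed on the same side for several of these genes. Mid1 was at 1.12, 0.66, 0.64 and 0.76 at 720, 1440, 2880 and 5760 min, and Sipa1l2 at 0.34, 0.35, 0.30 and 0.47. Nxf3 was at -0.65, -0.81, -0.85 and -1.19. Tbx3, called at 0 min, was at 0.03, 0.00, -0.06 and -0.07, and Lef1 at -0.20, -0.05, -0.02 and -0.01. Changes from 0 min in either line share the libraries described here, so a line difference at 0 min enters any such change.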

How the data were processed

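RNA was made into unstranded TruSeq v2 poly(A) libraries, per the labels' protocols. The authors deposited estimated (expected) counts and TPM per gene and library, so named per the file headers. Per the submitters' processing notes the tool was Salmon 1.5.2 and the build mm10, and how transcripts were summed to genes is not given in the sources used here. Of the deposited expected counts, 76% were whole numbers. Gene positions came from GENCODE M21, in which 40140 of 40914 gene IDs matched, and genes without a match, Peg3 and Erdr1 among them, have no position here.

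Expected counts were rounded and fitted with edgeR 4.0.16 in R 4.3.3 (filterByExpr, minimum count 10 and minimum total 15; TMM; robust quasi-likelihood tests; Benjamini-Hochberg adjustment over all genes tested), with 1 coefficient per line and time over the 60 libraries of the long course and, separately, the 96 of the short course. The difference between the courses was fitted on the 10 KO libraries at 0 min. The scripts were tested on simulated data. TPM values as deposited describe levels, and CPM comes from edgeR. Sums over the Y, the X, chromosome 11 and mitochondrial genes used exact permutation tests with 3 libraries per group. Alternatives were DESeq2 1.42.0, RLE size factors, no filter, the 6 libraries alone, a replicate block, leaving out each library, and, chosen after seeing the data, leaving out chromosomes 11 and Y, a crossed block, and limma 3.58.1 on log2(TPM + 0.1).

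The members, tests and 28 gene lists were chosen with earlier results of these data known. Named genes were Firre, the 10 largest called changes each way (mean CPM 1 or more, no provisional symbols), the X-Y list, at most 4 called members of each other list by smallest adjusted p, and the 5 largest changes shared with the WT pair and with the short course. 1 gene that this rule chose is not reported here. Others named were chosen after their values were seen. Genes tied to induction came from the response in the WT background of the long course (adjusted p under 0.05 and a log2 size of at least 1).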

Additional observations from a re-analysis of the deposited data

Results flagged for a closer look

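The line difference at 0 min was compared between the KO and the WT background by the interaction contrast of edgeR with Benjamini-Hochberg adjustment (long course, 3 libraries per group). It differed for 34 of the 69 named genes, against 6.52% of all genes tested. Many named genes were chosen by their difference in these same KO libraries, which favours passing here, so these shares cannot be compared as a test. The values are log2 differences, the KO pair minus the WT pair. Usp26, lower in both transgene lines and more so in the WT one, was at 0.99. Among the Y-linked genes, Eif2s3y was at 1.66, Uba1y at 0.88, Ddx3y at 0.80 and Uty at 0.76, and the X-linked Ddx3x was at -0.13. Firre was at 1.04 on counts, with an adjusted p of 0.0122, but at 0.10 by limma on log2(TPM + 0.1), where it did not pass (adjusted p = 0.954).

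At the end of the X, Mid1 was at -1.20, being higher in both transgene lines and more so in the WT one, and Erdr1 was at 1.02. The genes of the 2-cell-like state had opposite signs in the pairs, with Usp17lc at 1.46, Zfp352 at 1.36, Zscan4e at 1.22, Zscan4f at 1.02 and Zscan4d at 0.87. In the WT pair itself, 10 of 35 imprinted genes were higher in the transgene line and 5 lower, against 7.22% and 5.94% of all genes tested. Of the 35, 11 were lower and 4 higher in the KO pair than in the WT pair, against 3.14% and 3.39% of all genes tested. The named ones among them were lower, with Ndn at -1.26, Grb10 at -0.42, Mest at -0.31, Peg3 at -0.29 and Impact at -0.26.

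Higher in the KO pair than in the WT pair were also Chit1 (1.40), Dcc (1.35), Plk2 (0.98), Krt8 (0.57), Btg2 (0.43), Klf4 (0.38), Tex19.1 (0.34), Sipa1l2 (0.29), Tbx3 (0.22) and Etv5 (0.17). Lower in it were Slfn3 (-0.74), Pramel7 (-0.57), Ccnd1 (-0.44), Insig1 (-0.18) and Hsph1 (-0.17).

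The KO line difference was also compared between the courses by the interaction contrast of edgeR (3 and 2 libraries per group). Values are the long minus the short course. The difference passed for 0.219% of all genes tested. Many named genes were chosen by their long-course difference, which favours passing here. Among the 69 named genes, 10 passed. On the Y these were Eif2s3y (1.16), Ddx3y (1.05), Uty (0.98) and Uba1y (0.74). On the X they were Mid1 (0.68), higher in the KO transgene line in both courses, and Usp26 (0.67), lower in both. The remaining ones were Usp17lc (0.80), Zscan4e (0.71), Zscan4f (0.58) and Zscan4d (0.54), whose copies share sequence. Levels of the Y and of chromosome 11 in both KO lines also differed between the courses, and their part in these differences was not tested.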

How the results depend on the processing

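Firre was higher in the KO transgene line past the threshold under each alternative tried, TPM included, but its larger fold change in the KO than in the WT pair was not called on TPM. The 622 calls became 611 with DESeq2, 626 with RLE size factors, 591 without a filter, 415 in a fit on the 6 libraries, 484 without chromosomes 11 and Y, 185 with limma on log2(TPM + 0.1), and 390 to 468 when 1 library was left out. Requiring a size of 0.58 on the log2 scale too left 78. The short-course count of 29 became 64 with DESeq2, 261 without a filter and 4 to 67 when 1 library was left out. The count for the difference between the courses, 37, became 107 without a filter and 18 to 161 when 1 library was left out. The cause was not tested. The counts for the WT pair and for the difference between the pairs were 853 and 392 with limma on TPM, and stayed within 1.5 times in the other fits run (1668 to 2458 and 862 to 1234).

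The differences in the Y sum (55.1 to 58.9 CPM) and the chromosome 11 share (-0.556 to -0.536 percentage points) kept their direction without any 1 of the 6 libraries. Of 59 called named genes, 55 kept their call without a filter, 56 of 57 with DESeq2, 30 of 59 on TPM and 51 of 58 in the fit on the 6 libraries. Uncalled X-linked genes near zero changed sign: Eif2s3x was -0.0007 without a filter, and leaving out 1 library gave -0.020 to 0.12 for Rbmx, -0.0004 to 0.040 for Kdm5c, -0.024 to 0.023 for Eif2s3x, -0.035 to 0.0032 for Kdm6a, -0.042 to 0.0069 for Zfx and -0.16 to 0.070 for Sox3.

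Replicate numbers did not pair the libraries: deviations of same-numbered KO libraries of the long course correlated at 0.109, -0.067 and 0.038 over 13321 genes, and not every library correlated best with its own number. A replicate block gave 684 calls in the KO pair, 2458 in the WT pair, 1234 for their difference and 82 in the short course. With the numbers of the short-course control crossed, a pairing chosen after seeing the data, the block gave 79. In the 6 libraries Firre rested on 11 to 28 counts, so small differences in genes this low were not detectable at this depth.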
